A study of Mus musculus with 6 samples.

Results

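Dio2, Slc16a10, Thra and Thrb activate, import and sense thyroid hormone, and their RNA was followed in brown fat of mice labelled wild type or PHOSPHO1 knockout. PHOSPHO1 is an enzyme that removes phosphate from phosphocholine and phosphoethanolamine. The 4 genes were taken by symbol after Ensembl identifiers were matched to mouse symbols. All 4 were among the 37620 identifiers in the deposited counts and among the 12068 genes that passed the filter on low counts. Both groups had 3 libraries of 3 pooled mice each, 6 weeks old and on a C57BL/6 background. The material was mature brown fat, the adipocytes that float after minced tissue is digested with collagenase A and spun. The labels name no treatment for either group and do not say how the knockout allele was made or which cells lack the gene. The comparison asks how the RNA of brown adipocytes differs between mice with these labels.

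Thyroid hormone reaches brown fat mainly as the prohormone thyroxine. Deiodinase 2, the selenoenzyme encoded by Dio2, removes an iodine from thyroxine inside the cell and yields the active hormone T3. Monocarboxylate transporters such as the Slc16a10 product MCT10 move the hormones across the plasma membrane. T3 binds the nuclear receptors encoded by Thra and Thrb, which pair with retinoid X receptors on DNA and exchange corepressors for coactivators. In brown fat, cold and adrenergic signals raise Dio2 through cyclic AMP, and the T3 made locally acts together with those signals on thermogenic genes.

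Dio2 and Thrb were lower in the knockout-labelled libraries by 4.22-fold and 3.45-fold. Slc16a10 and Thra did not pass the test. In Dio2, Thrb and also Slc16a10 every knockout-labelled library lay below every wild-type library, a separation found for 19.6% of all tested genes. Among all tested genes, 7.52% were called lower and 1.63% higher (edgeR quasi-likelihood test, Benjamini-Hochberg adjusted p under 0.05), which is the background for these counts of 2 lower and 0 higher among the 4 genes. With total counts alone in place of TMM scaling, 2.05% of calls were higher, against 17.8%. Levels are in CPM, a gene's counts per 1000000 counts of the TMM-scaled library, and a negative log2 fold change means lower in the knockout-labelled libraries.

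Library totals ranged from 10576800 to 14239307 counts, and genes of the mitochondrial genome took 39.1% to 56.5% of them. Phospho1 itself had 13, 5 and 5 counts in wild-type libraries 1, 2 and 3 and 18, 15 and 17 in knockout-labelled libraries 1, 2 and 3. The targeted gene was therefore not lower where the label says knockout (log2 fold change 1.53, SE 0.46, edgeR adjusted p = 0.0563). Of its exonic bases, 89.6% are shared with Zfp652 (same strand) and 84.2% with Abi3 (opposite strand), so these few counts check the labels little. All directions here are those of the libraries labelled knockout. All 8 brown adipocyte markers and all 8 general adipocyte markers had counts in all 6 libraries. The summed level of the brown markers was 4365 to 6993 CPM in wild type against 7598 to 9461 CPM in the knockout-labelled libraries, and Ucp1 alone gave 2285 to 3288 CPM and 3817 to 4873 CPM of it. Of these 8 markers 1 was called higher (Cox7a1) and 1 lower (Ppargc1a). The 8 mural cell markers summed to 1372, 1043 and 888.8 CPM in wild-type libraries 1, 2 and 3 and to 1020, 773.7 and 547.1 CPM in knockout-labelled libraries 1, 2 and 3. That sum was highest in wild type 1 and lowest in knockout 3, as Dio2 and Thrb were, but its groups overlapped. Of the mural markers 3 were called higher (Acta2, Myl9 and Tagln) and 1 lower (Abcc9). The 6 erythroid markers summed to 366 to 1378 CPM and 1210 to 3506 CPM, and the 8 endothelial markers to 453 to 640 CPM and 552 to 589 CPM, in the same order of groups. Called higher were the erythroid markers Alas2 and Hba-a1, and called lower the endothelial markers Flt1 and Tek. Their part in the results below was not tested.

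Dio2 held 1305, 447 and 291 counts in wild-type libraries 1, 2 and 3, or 73.6, 30.5 and 26.1 CPM. The knockout-labelled libraries 1, 2 and 3 held 152, 108 and 84 counts, or 13.4, 8.86 and 8.58 CPM. Wild type 1 stood well above the other wild-type libraries, and the lowest wild-type level was still 1.94 times the highest knockout-labelled level. The mean went from 43.4 ± 26.2 to 10.3 ± 2.73 CPM (SD over the 3 libraries of a group). This is a log2 fold change of -2.08 (SE 0.39, 95% interval -2.93 to -1.23, edgeR adjusted p = 0.0175), and the gene was number 130 of the 12068 by p-value. Taken alone, an exact two-sided permutation test of log2 CPM gave p = 0.1, the smallest that 3 libraries against 3 allow. Without wild type 1 the log2 fold change was -1.46 (edgeR adjusted p = 0.122), and without knockout 2 or knockout 3 it was -2.02 and -2.00 (edgeR adjusted p = 0.0552 and 0.0758). Over all genes, the fit without wild type 1 called 0 lower and 0 higher. Without knockout 2 the calls over all genes were 258 lower and 47 higher, and without knockout 3 they were 0 lower and 2 higher. Dio2 is annotated with 1 transcript, of 5815 bases, and 1.72% of its exonic bases overlap a predicted gene on the opposite strand. In bulk RNA of this kind, fewer cells expressing a gene and less RNA per cell cannot be told apart.

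The promoters of Dio2 and Thrb are shown because these were the genes that passed the test. They are the 250 bases before the RefSeq transcription start on GRCm38.p6, 5′ to 3′ on the gene's strand. Capitals mark the cyclic AMP response element TGACGTCA, its 5-base part TGACG outside it, and the nuclear receptor motif AGGTCA, all searched on both strands.
Dio2, chr12:90739039-90739288, minus strand: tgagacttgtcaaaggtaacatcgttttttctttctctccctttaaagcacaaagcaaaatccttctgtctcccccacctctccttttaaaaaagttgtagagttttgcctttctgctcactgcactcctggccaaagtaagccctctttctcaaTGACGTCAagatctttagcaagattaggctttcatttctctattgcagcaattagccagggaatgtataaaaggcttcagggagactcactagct
Thrb, chr14:17660710-17660959, plus strand: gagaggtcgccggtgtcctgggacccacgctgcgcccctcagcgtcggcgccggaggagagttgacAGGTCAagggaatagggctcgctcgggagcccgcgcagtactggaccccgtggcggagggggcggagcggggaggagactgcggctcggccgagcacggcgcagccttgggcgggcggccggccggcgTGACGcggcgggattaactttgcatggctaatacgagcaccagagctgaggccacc

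The Dio2 window holds 1 full TGACGTCA, at 95 to 88 bases before the start, a sequence found in 1.55% of 32817 promoter windows of the same length. TGACG, which lies within it on each strand, occurs in 17.7% of those windows. The Thrb window shown holds 1 TGACG, at 56 to 52 bases before the start, and 1 AGGTCA, at 184 to 179 bases. AGGTCA occurs in 14% of all windows. A second Thrb window, at another start, and the Slc16a10 window hold none of the 4 motifs searched. The direct repeat of AGGTCA with a spacer of 4 bases, the classical thyroid hormone response element, was in none of the windows of these 3 genes and in 0.0152% of all windows. Of the 4 genes, 3 had an entry in the promoter table. These matches are letters in a window and were not compared with the RNA.

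**Figure D1:**
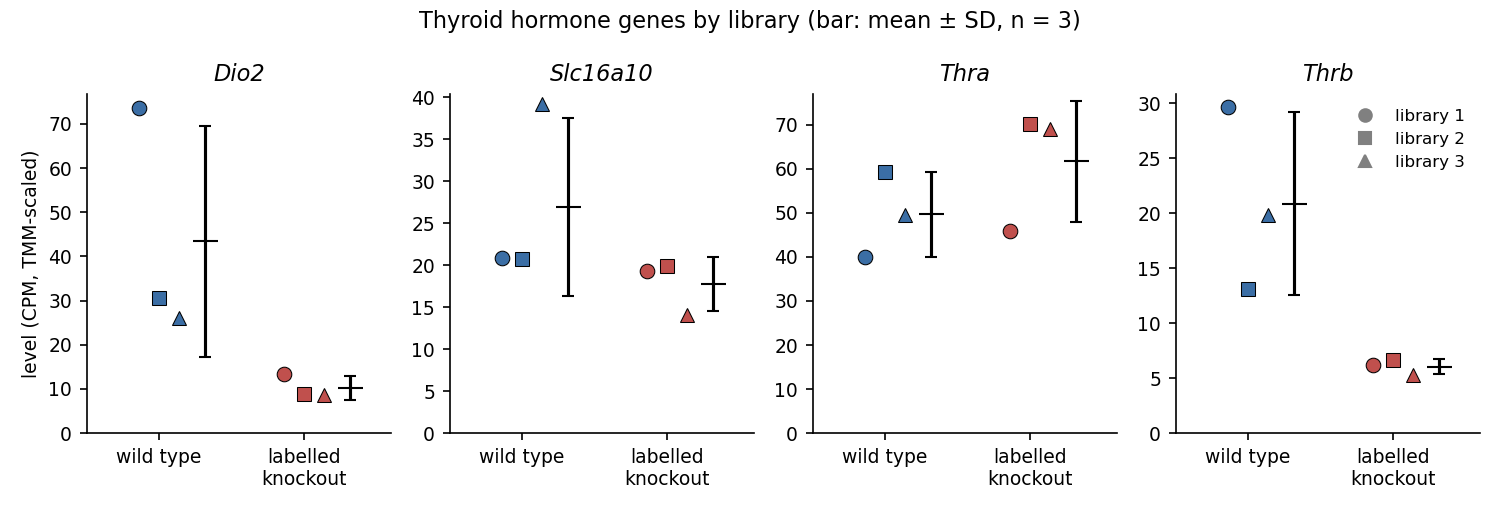
Level of each gene in each library, in CPM on TMM-scaled library sizes, with wild-type libraries in blue and knockout-labelled libraries in red; the black bar is the mean ± SD of 3 libraries. Dio2 and Thrb lie lower in all 3 knockout-labelled libraries. Slc16a10 is separated by a narrow gap, with wild type 3 well above the other libraries, and Thra overlaps between the groups.

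Thrb, the receptor beta gene, held 526, 192 and 221 counts in wild-type libraries 1, 2 and 3, or 29.7, 13.1 and 19.8 CPM. Its counts in knockout-labelled libraries 1, 2 and 3 were 70, 81 and 52, or 6.19, 6.64 and 5.31 CPM. The knockout-labelled libraries lay close together, within 1.25-fold, whereas the wild-type libraries spanned 2.26-fold with wild type 1 again the highest. The means were 20.9 ± 8.33 CPM and 6.05 ± 0.679 CPM (SD, n = 3 each), with a log2 fold change of -1.78 (SE 0.32, 95% interval -2.48 to -1.09, edgeR adjusted p = 0.0168). The exact permutation p was again 0.1. Leaving out wild type 1 gave -1.45 (edgeR adjusted p = 0.122) and leaving out knockout 3 gave -1.72 (edgeR adjusted p = 0.075). Over all genes, the first of these fits called 0 lower and 0 higher, and the second 0 lower and 2 higher. No exonic base of Thrb overlaps another annotated gene. The gene encodes several receptor forms from different starts, and counts per gene do not separate them.

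Thra, the receptor alpha gene, held 709, 870 and 552 counts in wild type, or 40.0, 59.4 and 49.5 CPM, and 519, 854 and 676 counts in the knockout-labelled libraries, or 45.9, 70.05 and 69.0 CPM. The groups overlapped, with knockout 1 below wild type 2 and wild type 3. The log2 fold change was 0.31 (SE 0.25, 95% interval -0.24 to 0.87, edgeR adjusted p = 0.407), an interval that runs from 0.846-fold to 1.82-fold. Its sign turned, to -0.05 and -0.15, when length and GC trends were removed as described further on. Of its 9 annotated transcripts, 2 share exon sequence with the circadian repressor gene Nr1d1 on the opposite strand, over 263 of 4614 exonic bases (5.7%). Nr1d1 had 31.6, 28.5 and 120 CPM in wild type against 21.1, 68.5 and 62.4 CPM in the knockout-labelled libraries. Any part of Nr1d1 reads in the Thra counts was not tested. The Thra gene also makes a splice form that does not bind T3, and counts per gene do not show the share of each form.

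Slc16a10 held 371, 304 and 437 counts in wild type, or 20.9, 20.75 and 39.2 CPM, and 218, 243 and 138 counts in the knockout-labelled libraries, or 19.3, 19.9 and 14.1 CPM. The groups did not overlap, but the lowest wild-type level was only 1.04 times the highest knockout-labelled level. The log2 fold change was -0.60 (SE 0.30, 95% interval -1.25 to 0.055, edgeR adjusted p = 0.196). It rested on wild type 3: without that library it was -0.25 (edgeR adjusted p = 0.635). Wild type 3 also held 925 CPM of the 8 skeletal muscle markers, against at most 95.6 CPM in any other library. The 8 macrophage markers summed to 115 to 213 CPM in wild type against 234 to 508 CPM in the knockout-labelled libraries. Of these markers 1 was called higher (Lyz2) and 1 lower (Cd163). The part of muscle or macrophage RNA in the Slc16a10 level was not tested.

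Because the 2 receptor genes were counted in the same libraries, their ratio does not depend on how libraries are scaled. There were 1.35, 4.53 and 2.498 Thra counts for each Thrb count in wild-type libraries 1, 2 and 3, and 7.41, 10.5 and 13.0 in knockout-labelled libraries 1, 2 and 3. The ratio was 2.79 ± 1.61 in wild type and 10.3 ± 2.80 in the knockout-labelled libraries (SD, n = 3 each), with no overlap. The ratio of Dio2 to Thrb counts, in contrast, overlapped between the groups, at 2.48, 2.33 and 1.32 in wild type and 2.17, 1.33 and 1.62 in the knockout-labelled libraries. The ratio of Dio2 to Thra was 1.84, 0.514 and 0.527 in wild type and 0.293, 0.127 and 0.124 in the knockout-labelled libraries, with no overlap. The Thra and Thrb transcripts differ in length, and across all genes the fold change moved with length. With that trend and the GC trend removed, Thra was at -0.05 and Thrb at -1.03 on the log2 scale, in place of 0.31 and -1.78, so the change in the ratio of Thra to Thrb was smaller in that fit. These ratios were chosen after the values were seen and were not tested.

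**Figure D2:**
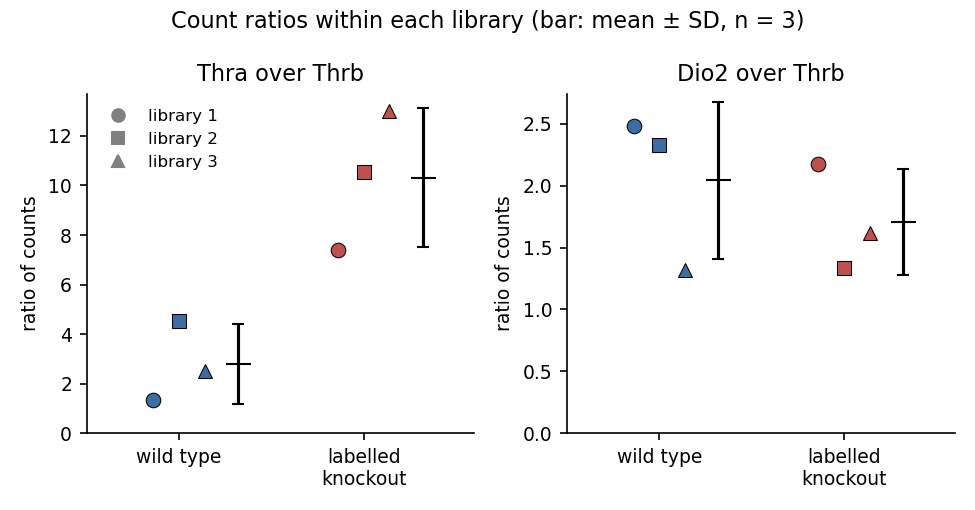
Ratio of Thra to Thrb counts (left) and of Dio2 to Thrb counts (right) in each library, with the mean ± SD of 3 libraries as a black bar. The Thra to Thrb ratio is at most 4.53 in wild type and at least 7.41 in the knockout-labelled libraries, whereas the Dio2 to Thrb ratio overlaps between the groups.

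Levels of different genes can be compared only per transcript length. As CPM per kilobase of the longest annotated transcript, Thra ranked first of the 4 genes in all 6 libraries, at 20.2 ± 3.96 in wild type and 25.15 ± 5.57 in the knockout-labelled libraries (SD, n = 3 each). In wild type it was followed by Dio2 at 7.46 ± 4.51, Slc16a10 at 4.996 ± 1.97 and Thrb at 3.365 ± 1.34, and these neighbours did not differ beyond their spread. In the knockout-labelled libraries the order was Slc16a10 at 3.29 ± 0.593, Dio2 at 1.77 ± 0.47 and Thrb at 0.9755 ± 0.1095, the same in each of the 3 libraries. The order below Thra depends on the transcript used. With the median annotated transcript, 790 bases for Thrb in place of 6200, Thrb ranked second in every wild-type library and Dio2 last in 2 of 3.

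Transcript length moved with the group across all genes. Genes were ranked by their longest transcript, and the median log2 fold change ran from 0.59 in length decile 1 to -0.78 in length decile 10. Dio2, Slc16a10 and Thrb have long transcripts (5815, 5397 and 6200 bases) and fall in decile 9, where the median was -0.61 and 18.6% of genes were called lower. Thra, at 2452 bases, falls in decile 4, where the median was 0.20. Slc16a10 and Thra thus lay near the median of their decile, and Dio2 and Thrb lay 1.47 and 1.18 log2 units below theirs. Per library, the slope of centred log2 CPM on log2 length was 0.306, -0.025 and 0.30 in wild type and -0.238, -0.093 and -0.249 in the knockout-labelled libraries.

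**Figure D3:**
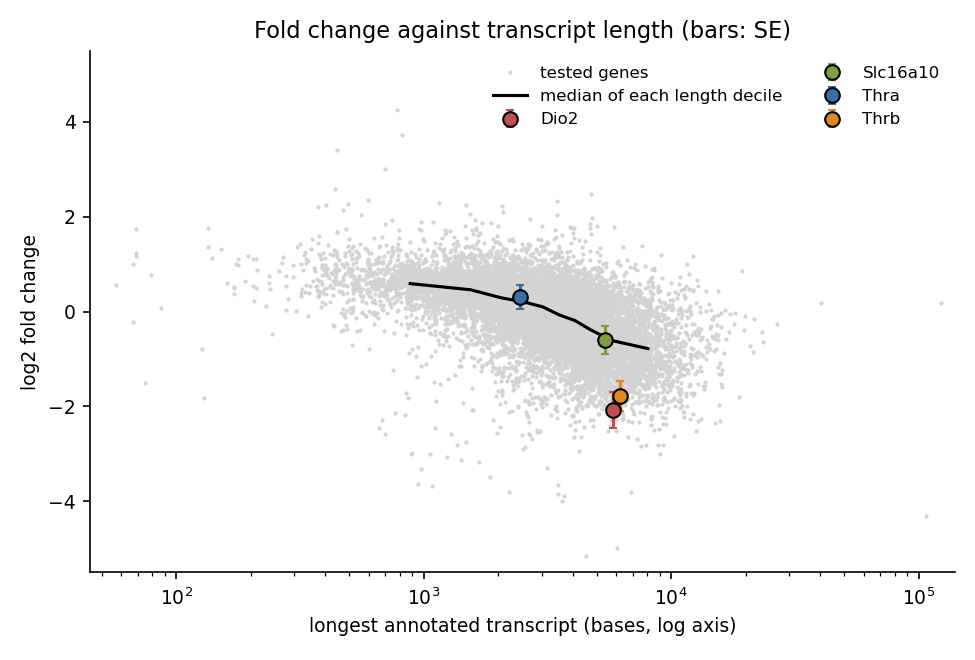
Log2 fold change of every tested gene with an annotated length (grey points) against the length of its longest transcript on a log axis, with the median of each length decile as a black line and the 4 genes with SE bars. Slc16a10 and Thra sit near the line, and Dio2 (-2.08) and Thrb (-1.78) sit below the -0.61 of their decile.

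When a smooth trend on the longest transcript and GC content was removed from each library, Dio2 was at -1.32 (SE 0.34, edgeR adjusted p = 0.0735) and Thrb at -1.03 (SE 0.24, edgeR adjusted p = 0.0636). Slc16a10 moved to -0.10 and Thra to -0.05. With the median transcript in place of the longest, Dio2 was at -1.08 (edgeR adjusted p = 0.0841) and Thrb at -1.63 (edgeR adjusted p = 0.0488). Slc16a10 was then at -0.44 (SE 0.28, edgeR adjusted p = 0.343) and Thra at -0.15. Dio2 and Thrb thus kept a negative sign in both fits and in every other setting tried, but Dio2 did not pass the threshold in either of these fits and Thrb passed only with the median transcript.

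**Figure D4:**
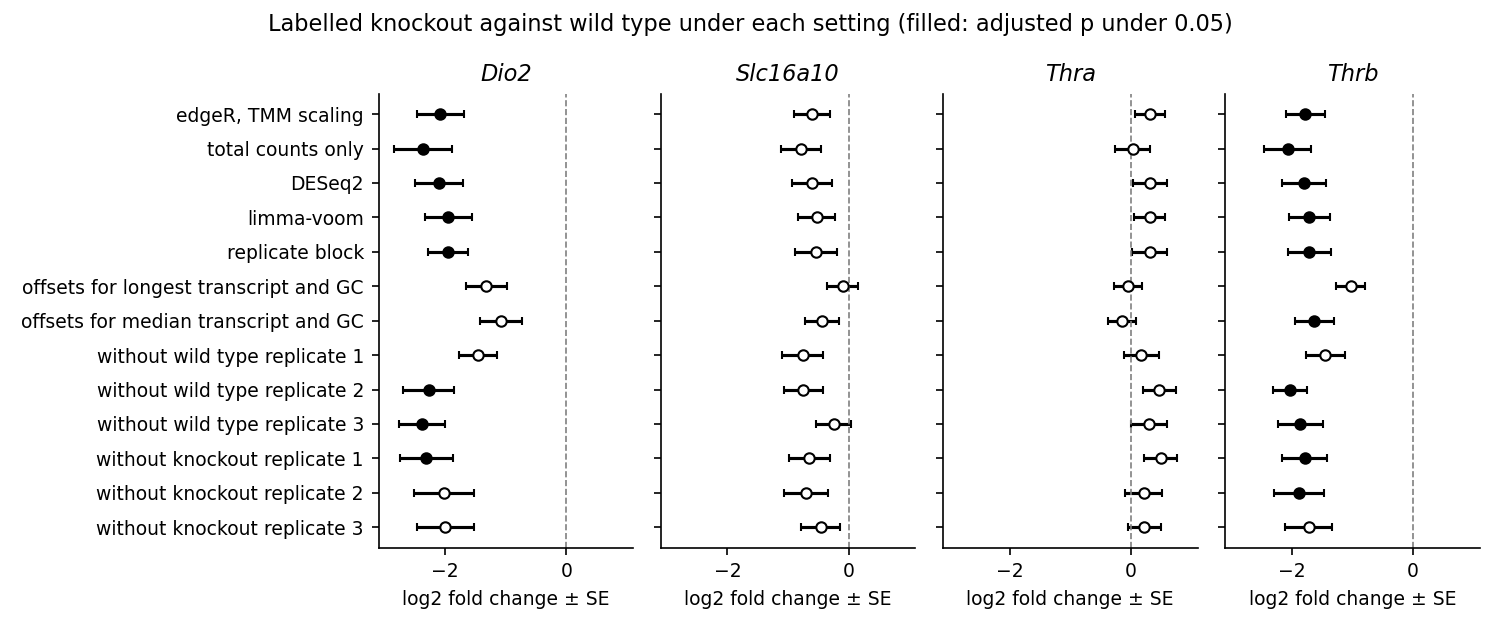
Log2 fold change ± SE of each gene under the settings named on the left, with filled points for an adjusted p under 0.05 and open points otherwise. Dio2 runs from -2.38 to -1.08 and Thrb from -2.07 to -1.03 in these panels, always below 0, while Thra crosses 0 with the length and GC offsets.

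The other genes of the pathway were read from 8 lists holding 57 genes, of which 50 were tested. Of these, 4 were lower, 0 higher and 46 did not pass in edgeR. Of all 12068 tested genes, 3718 had an unadjusted p under 0.05 in edgeR, as did 15 of these 50. The 4 lower genes are 8% of those tested, close to the 7.52% among all genes, and 22% of the 50 genes lay entirely lower in the knockout-labelled libraries against 19.6% of all genes. Another 10% lay entirely higher, against 15.8% of all genes. The median log2 fold change was -0.12, against 0.03 over all tested genes. With the offsets for the longest transcript and GC, 0 of the 50 passed in edgeR (12 at an unadjusted p under 0.05), with a median of 0.00. In that fit 2786 of all tested genes had an unadjusted p under 0.05. DESeq2 called 8 of the 50 pathway genes lower and limma-voom 4, both with 0 higher. Of all 12068 tested genes, DESeq2 called 1341 lower and limma-voom 742. Without wild type 1, knockout 2 or knockout 3, 0 passed in edgeR (unadjusted p under 0.05 in 8, 13 and 15). Over all genes, those fits had 2251, 3428 and 2672 at an unadjusted p under 0.05. They called 0, 258 and 0 of all genes lower and 0, 47 and 2 higher. Leaving out wild type 3 gave 1 lower pathway gene, against 366 lower and 31 higher over all genes. Leaving out wild type 2 gave 8 lower pathway genes and 1 higher, against 1383 lower and 688 higher over all genes.

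Deiodinase 1, which acts mainly in liver and kidney, and deiodinase 3, which inactivates the hormone, had few or no counts. Dio1 had 0 counts in all 6 libraries, which allows up to 0.169 to 0.306 CPM (3 counts) depending on the library, for counting error only. Dio3 had 0 to 6 counts per library and was not tested. Among 6 tested genes that build selenocysteine into proteins such as deiodinase 2, 0 passed in edgeR (1 at an unadjusted p under 0.05) or limma-voom and 1 was lower by DESeq2, with a median of 0.33. Sepsecs, which makes selenocysteine on its transfer RNA, was at -0.79 (edgeR adjusted p = 0.056), from 22.6 ± 3.22 to 13.0 ± 0.856 CPM. Trnau1ap, which binds that transfer RNA, was at 0.56 (edgeR adjusted p = 0.213), and Sephs2, which makes the selenium donor, at 0.48 (edgeR adjusted p = 0.221).

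Deiodinase 2 is controlled after translation by ubiquitin. Of 6 genes of that control, 1 was lower and 0 were higher, against 7.52% lower and 1.63% higher among all tested genes. Usp33, a deubiquitinase that rescues the enzyme, had 44.1, 38.4 and 48.0 CPM in wild type against 24.2, 20.7 and 7.56 CPM in the knockout-labelled libraries, with knockout 3 the lowest. Its log2 fold change was -1.31 (SE 0.36, edgeR adjusted p = 0.0454). With the longest-transcript and median-transcript offsets it was -0.86 and -1.11 (edgeR adjusted p = 0.128 and 0.068).

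Of 9 transport and binding genes, 4 were tested, and 0 of them passed in edgeR (1 at an unadjusted p under 0.05), DESeq2 or limma-voom. Slc7a5, a light chain of the L-type amino acid transporter that also carries thyroid hormones, had 12, 14 and 2 counts against 14, 17 and 23 (log2 fold change 1.38, edgeR adjusted p = 0.108). Slc3a2, its heavy chain, was at 0.42 (edgeR adjusted p = 0.205), and Slc7a8, another light chain, at -0.96 (edgeR adjusted p = 0.263). The 5 untested genes held at most 1 count in any library.

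Of the 3 retinoid X receptor genes, 0 passed in edgeR, DESeq2 or limma-voom, and 0 had an unadjusted p under 0.05. Rxra was at -0.54, Rxrb at 0.43 and Rxrg at 0.15 (edgeR adjusted p = 0.276, 0.336 and 0.72). Rxrg turned negative with total counts alone (-0.08) and with the longest-transcript offsets (-0.22), and Rxrb was at -0.01 with the median-transcript offsets.

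Of 6 corepressor genes 0 passed in edgeR (2 at an unadjusted p under 0.05) or limma-voom, and DESeq2 called 1 lower. Tbl1x, a subunit of the corepressor complex, had 53.5, 37.9 and 77.1 CPM in wild type against 17.3, 32.5 and 29.8 CPM in the knockout-labelled libraries (log2 fold change -1.08, edgeR adjusted p = 0.0527). Its relative Tbl1xr1 was at -0.68 (edgeR adjusted p = 0.113), at 0.27 with the longest-transcript offsets and at -0.43 with the median-transcript offsets. The deacetylase Hdac3 was at 0.47 (edgeR adjusted p = 0.20).

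Of 7 coactivator genes, 1 was lower and 0 were higher, against 7.52% lower and 1.63% higher among all tested genes. The lower gene was Ncoa2, a p160 coactivator of nuclear receptors. Ncoa2 had 9.59, 5.39 and 7.27 CPM in wild type against 2.48, 3.69 and 2.45 CPM in the knockout-labelled libraries. Its log2 fold change was -1.36 (SE 0.33, edgeR adjusted p = 0.0322). With the longest-transcript and median-transcript offsets it was -0.68 and -1 (edgeR adjusted p = 0.147 and 0.0699).

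Among 10 genes known to respond to thyroid hormone, 1 was lower and 0 were higher, against 7.52% lower and 1.63% higher among all tested genes. DESeq2 called 2 of the 10 lower and limma-voom 1, against 1341 and 742 of all 12068 tested genes. Of all 12068 tested genes, 3718 had an unadjusted p under 0.05 in edgeR, as did 5 of these 10. The median was -0.58, and -0.17 with the longest-transcript offsets, against 0.03 over all genes in both fits. Ppargc1a, the coactivator PGC-1α, had 45.2, 26.8 and 39.4 CPM in wild type against 15.04, 21.2 and 16.85 CPM in the knockout-labelled libraries (log2 fold change -1.07, SE 0.27, edgeR adjusted p = 0.0342). With the longest-transcript and median-transcript offsets it was at -0.17 and -0.34 (edgeR adjusted p = 0.659 and 0.393). Named after their values were seen, Acaca, Klf9, Thrsp and Ucp1 did not pass in the main edgeR test and had values of both signs. Acaca, a fatty acid synthesis enzyme, was at -2.13 (edgeR adjusted p = 0.0525), with 95.35, 17.3 and 78.4 CPM in wild type against 11.9, 10.4 and 21.4. It passed as lower in 5 of 20 alternatives, among them DESeq2 (DESeq2 adjusted p = 0.000266). With the longest-transcript and median-transcript offsets it was at -1.33 and -2.23 (edgeR adjusted p = 0.113 and 0.0739). Klf9, a transcription factor induced by T3, was at -0.68 (edgeR adjusted p = 0.144). Thrsp, a lipogenic regulator, was at 0.46 (edgeR adjusted p = 0.222), and Ucp1, the uncoupling protein of brown fat, at 0.66 (edgeR adjusted p = 0.113). Ucp1 passed as higher in 1 of 20 alternatives, the fit without wild type 2 (0.84, edgeR adjusted p = 0.045).

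Of 8 genes of the cyclic AMP input that controls Dio2, 1 was lower and 0 were higher, with a median of -0.18. Among all tested genes, 7.52% were lower and 1.63% higher. DESeq2 called 2 of the 8 lower and limma-voom 1, against 1341 and 742 of all 12068 tested genes. Creb1, a transcription factor that binds cyclic AMP response elements, had 42.8, 25.25 and 28.0 CPM in wild type against 17.2, 13.2 and 9.29 CPM in the knockout-labelled libraries. Its log2 fold change was -1.28 (SE 0.30, edgeR adjusted p = 0.029). With the longest-transcript and median-transcript offsets it was -0.2 and -0.8 (edgeR adjusted p = 0.613 and 0.0808). Adrb3, the main adrenergic receptor of brown fat and named after its values were seen, had 80.8 ± 4.87 CPM in wild type against 79.1 ± 19.4 CPM in the knockout-labelled libraries (log2 fold change -0.03, 95% interval -0.55 to 0.49, edgeR adjusted p = 0.944).

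**Figure D5:**
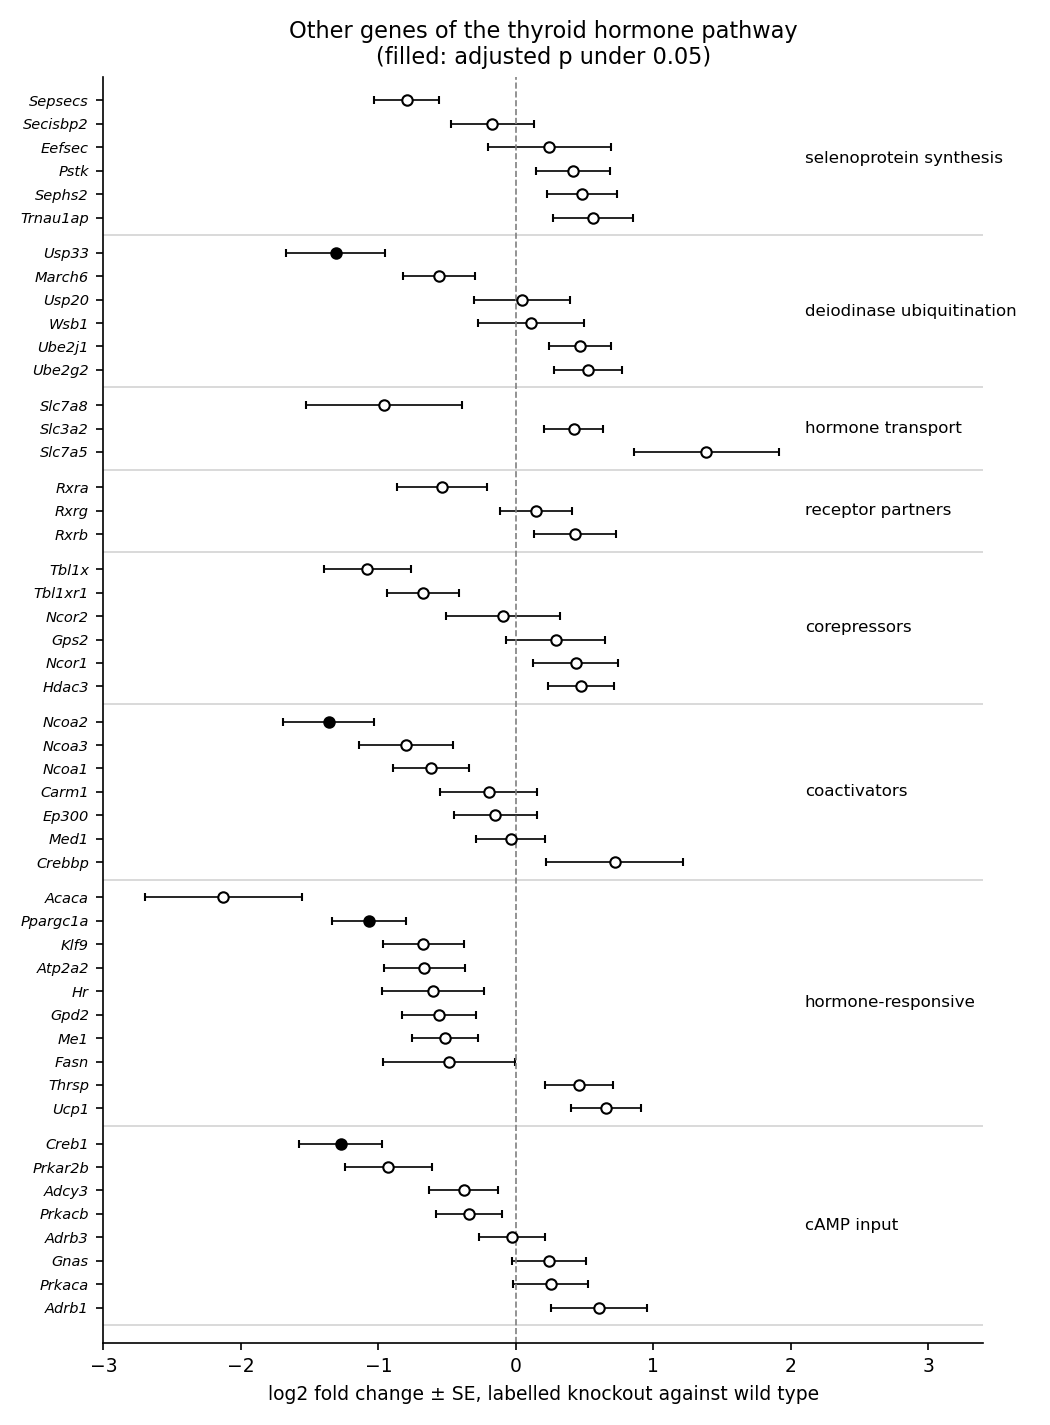
Log2 fold change ± SE of 49 of the 50 tested pathway genes, grouped by role, with filled points for an adjusted p under 0.05. The 4 filled points, Usp33, Ncoa2, Ppargc1a and Creb1, lie between -1.36 and -1.07, and open points lie on both sides of 0.

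The genes most like each of the 4 in their levels over the 6 libraries were found as those with the smallest root mean square difference of centred log2 CPM, among 10765 other genes with a mean of at least 1 CPM. They are a description, and the 6 libraries share their scaling and the length trend. Nearest to Dio2 were the zinc-finger gene Zfp948, the phosphatase subunit Ppp4r3b and the topoisomerase Top2b, at 0.195, 0.208 and 0.209 log2 units. Nearest to Thrb were the ubiquitin ligase Trip12, the zinc-finger gene Zfp397 and the scaffold gene Spag9, at 0.073, 0.114 and 0.119. Trip12 had 75.3, 30.2 and 48.9 CPM in wild type against 17.1, 17.1 and 13.8 CPM in the knockout-labelled libraries, and its longest transcript has 9632 bases. Thra was followed most closely by Mrap, the melanocortin receptor accessory protein gene, at 0.048, and then by Sgta and Txnl4b at 0.071 and 0.072. Slc16a10 was followed by the macrophage lectin gene Clec10a at 0.108, the kinase gene Clk2 at 0.118 and the Mediator gene Med23 at 0.119. These 3 genes also had their highest level in wild type 3, at 2.87, 12.6 and 13.2 CPM.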

How the data were processed

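RNA sequencing counts came from 6 libraries of mature brown fat, 3 per group, with group and replicate number taken from the labels. The authors deposited raw counts, whole numbers per Ensembl gene with no normalization. The submitters' processing notes name STAR 2.5.4b and mm9. No counting program, strand setting or annotation is given in the sources used here, so genes overlapping on opposite strands cannot be told apart. Symbols, transcript lengths and overlaps came from GENCODE M21 on GRCm38 by identifier, with 32897 of 37620 matched; promoters came from RefSeq on GRCm38.p6.

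The main test used edgeR 4.0.16 in R 4.3.3: filterByExpr (minimum count 10, minimum total 15), TMM, robust quasi-likelihood F test, Benjamini-Hochberg adjustment over 12068 genes, threshold 0.05, and log2 CPM with a prior count of 2. No 2 libraries were identical, and each is a pool of 3 mice counted as 1 replicate. Alternatives were RLE, upper-quartile and total-count scaling, removal of mitochondrial genome genes, DESeq2 1.42.0, limma-voom (limma 3.58.1), the legacy method, other filters, a replicate block, each library left out, an adjusted p of 0.01, and offsets from smooth terms of basis size 6 on log2 length and GC (mgcv 1.9.3). The code was tested on simulated data. Genes named are the 4; Phospho1; Nr1d1; pathway genes past the threshold, or in lists without any the 3 with the smallest p; and the 3 nearest genes of each of the 4, leaving out predicted genes and pseudogenes. The 4 genes, the lists and the tests were chosen with earlier results of these data known. One gene of the pathway lists enters the counts and is not reported here by name.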

Additional observations from a re-analysis of the deposited data

How the results depend on the processing

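Dio2 and Thrb were negative in all 20 alternatives. Dio2 did not pass with the longest-transcript offsets (-1.32), the median-transcript offsets (-1.08), the replicate block with offsets (-1.24) or a threshold of 0.01 (-2.08), and Thrb not with the longest-transcript offsets (-1.03), the block with offsets (-1) or a threshold of 0.01 (-1.78); the cause was not tested. With 1 library left out, Dio2 ran from -2.38 to -1.46 and Thrb from -2.03 to -1.45. Dio2 did not pass without wild type 1, knockout 2 or knockout 3 (edgeR adjusted p = 0.122, 0.0552 and 0.0758). Thrb did not pass without wild type 1 or knockout 3 (edgeR adjusted p = 0.122 and 0.075). Slc16a10 stayed negative and not called (-0.79 to -0.07), and Thra was not called, with -0.05, -0.15 and -0.06 under the longest-transcript offsets, the median-transcript offsets and the block with offsets.

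Pathway genes called lower numbered 4 as tested, 7 with total counts, 8 with DESeq2, 7 with the replicate block and 0 in edgeR with the longest-transcript offsets, the median-transcript offsets, the block with offsets (12, 10 and 11 at an unadjusted p under 0.05) or a threshold of 0.01; with 1 library left out they numbered 0 to 8, and those called higher 0 to 1. Over all genes, higher and lower calls were 197 and 908 as tested, and 493 and 1341 with DESeq2 among the same 12068 genes. With total counts they were 29 and 1389 (2.05% higher against 17.8%, with the median log2 fold change moved from 0.03 to -0.23). The replicate block gave 223 and 976. Longest-transcript offsets gave 1 and 0 (2786 at an unadjusted p under 0.05 in edgeR), and median-transcript offsets 81 and 141 (3168). The block with offsets gave 0 and 0 in edgeR (2474 at an unadjusted p under 0.05). A threshold of 0.01 gave 1 and 0, and leaving out 1 library gave 0 to 688 and 0 to 1383. The fit without wild type 1 gave 0 and 0, and the fit without knockout 3 gave 2 and 0. The replicate block alone changed the call of none of the 4 genes. Deviations of same-numbered libraries correlated at 0.14, -0.53 and 0.03. Differently numbered libraries ran from -0.42 (wild type 3 with knockout 1) to 0.54 (wild type 3 with knockout 2). With 3 libraries per group these values cannot show whether libraries were prepared in pairs.

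Genes not called whose sign turned were Tbl1xr1 (0.27 with longest-transcript offsets and with the block and offsets), Rxrg (-0.08 with total counts, -0.22 and -0.24 with the same 2 fits, and -0.0023 to 0.33 with 1 library left out), Thrsp (-0.04 and -0.05), Mrap (-0.25 and -0.28), Sgta (-0.13 and -0.15) and Txnl4b (-0.04 and -0.07) in those 2 fits, and Med23 (0.03 with the block and offsets). Txnl4b was at -0.0057 with total counts. With median-transcript offsets Rxrb was at -0.01, Mrap at -0.0045 and Sgta at -0.10. Nr1d1 ran from -0.58 to 0.74 with 1 library left out. With the median transcript, wild-type levels per kilobase were 14.85 for Slc16a10, 75.9 for Thra and 26.4 for Thrb. Phospho1 counts of 5 to 18 per library limit what its level can show.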
